A study of Mus musculus with 10 samples.

Results

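The comparison described here asks what changed in the chromatin of effector regulatory T (eTreg) cells when they lacked Fntb. It rests on 5 of the 10 libraries of the study, 2 from Fntb-deficient (FntbKO) eTreg cells and 3 from wild-type (WT) eTreg cells, taken by their labels, and on all 77076 regions of the count table. Of these regions 76216 held enough counts to be tested and 860 did not. The study measured chromatin accessibility by ATAC-seq, in which a transposase cuts and tags DNA that is not covered by nucleosomes. Mouse Treg cells were sorted from mixed bone marrow chimeras, in which transplanted marrow of more than 1 donor forms the blood, with spleen and lymph nodes as the tissue. The other 5 libraries, 3 of WT and 2 of FntbKO central Treg (cTreg) cells, came from the same kind of chimera and entered the fit to estimate the spread between libraries. All groups were therefore cells from chimeras, and the labels do not say whether cells of the recipient animals were excluded. The Cre driver, the deleted part of Fntb, the age of the animals, the markers of the sort and whether the libraries came from separate animals are not given in the labels. The p-values thus measure only the spread between these libraries, which may be technical.

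Fntb is the gene of the β subunit of farnesyltransferase. This enzyme attaches a farnesyl lipid to a cysteine near the end of proteins such as RAS, the small GTPase RHEB, which activates the kinase complex mTORC1, and the nuclear lamins, and the lipid helps to hold these proteins at membranes. Treg cells express the transcription factor Foxp3 and restrain other immune cells. Central Treg cells recirculate through lymphoid organs, for which they use the chemokine receptor CCR7, and express factors shared with naive T cells such as Bach2, Satb1 and Tcf7. Effector Treg cells are activated, and express molecules such as IL-10, TIGIT and KLRG1 and the transcription factors Maf and Prdm1.

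The Fntb locus differed between the genotypes. The Fntb gene (110606) lies at 76837400 to 76921412 of chromosome 12 (GRCm38), and 13 tested regions were assigned to it. A region was assigned to the protein-coding gene whose span it overlaps, or otherwise to the nearest within 100 kb, so an assigned gene is a position and not a shown target. The region over the Fntb start (76837192 to 76837915) held 29.4, 30.3 and 30.2 CPM (counts scaled to library size with edgeR's TMM factors) in the 3 WT eTreg libraries. It held 11.6 and 7.48 CPM in the 2 FntbKO eTreg libraries. Both FntbKO libraries lay far below all WT libraries, and the log2 fold change was -1.71 (SE 0.19, edgeR adjusted p = 4.46e-05). The 250 bases before a RefSeq start of Fntb (chr12:76837217-76837466, plus strand) lie wholly inside this region. That start lies inside the gene span given above, so the window reaches past 76837400 into the span. The 250 bases are printed below because this is the targeted gene, with the GC box core GGGCGG in capitals.

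Fntb: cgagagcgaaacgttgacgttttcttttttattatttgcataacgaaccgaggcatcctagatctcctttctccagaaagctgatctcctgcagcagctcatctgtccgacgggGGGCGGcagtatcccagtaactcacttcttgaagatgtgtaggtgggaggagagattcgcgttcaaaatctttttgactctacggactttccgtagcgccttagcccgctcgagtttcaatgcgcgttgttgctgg

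A second region in the Fntb span (76844676 to 76845058) was lower, with 4.58, 4.68 and 5.43 CPM in WT and 2.00 and 1.18 CPM in FntbKO eTreg cells (log2 fold change -1.69, SE 0.38, edgeR adjusted p = 0.0448). Another (76874004 to 76874477) was higher, with 9.64, 10.8 and 11.5 CPM in WT and 20.4 and 19.4 CPM in FntbKO cells (log2 fold change 0.90, SE 0.20, edgeR adjusted p = 0.0413). The groups did not overlap in either, but both calls were lost when any 1 of the 5 eTreg libraries was left out. The remaining 10 Fntb regions were not called, with log2 fold changes from -0.68 to 1.16. Since the deleted part is not given in the labels, these regions do not map the deletion. Foxp3, by contrast with Fntb, had 3 tested regions of which none was called by edgeR, 0 at an unadjusted p under 0.05, and 0 by DESeq2 or limma-voom. Its most accessible region (chromosome X, 7583812 to 7584418) held 29.8 ± 1.38 CPM (SD, n = 3) in WT and 32.9 ± 2.60 (n = 2) in FntbKO eTreg cells.

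The 5 eTreg libraries held between 5058328 and 10126587 counts. Counts in promoter windows (250 bases before to 50 after a RefSeq gene start) made up 36.1% to 38.0% of each library, and X-linked counts 2.19% to 2.31%. None of 4 library measures separated the genotypes in two-sided exact permutation tests (adjusted p = 1.0 for each, where 10 arrangements allow no p under 0.2). On the first principal component, with 32.6% of the variance, the WT eTreg libraries lay at 83.5, 65.0 and 130.2 and the FntbKO eTreg libraries at 0.7 and 28.7, while the WT cTreg libraries lay between -56.7 and 9.0. On this component WT eTreg 3, at 130.2, and WT cTreg 2, at 9.0, each lay apart from the other 2 libraries of their group, and the 2 FntbKO cTreg libraries lay far from each other, at -155.3 and -67.1. Accessibility here is summed over a sorted population, so a lower value in fewer cells and a lower value in every cell cannot be told apart.

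In FntbKO eTreg cells 138 regions rose (0.181% of those tested) and 129 fell (0.169%), so that 267 regions (0.35%) were called at an adjusted p under 0.05 of edgeR's quasi-likelihood test. The called regions were a small set, and the median log2 fold change over all tested regions was -0.0009. Among called regions falls were larger than rises, and how far this follows from the lower level of the falls, given below, was not tested. The median log2 fold change was -1.36 among the regions that fell, or -1.30 without the 8 that had at most 3 counts in 1 group, and 0.98 among those that rose. Falls of more than 2-fold were seen in 79 regions and rises of that size in 62. The regions that rose were the more accessible ones, with a median level of 4.23 log2 CPM against 3.42 for those that fell and 2.42 for all tested regions. At an unadjusted p under 0.05 there were 9336 regions (12.2%), 4898 higher (6.43%) and 4438 lower (5.82%). The unadjusted counts of the sets below are to be read beside these shares. The libraries of the genotypes did not overlap in all 267 called regions, and in 31.1% of all tested regions.

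**Figure D1:**
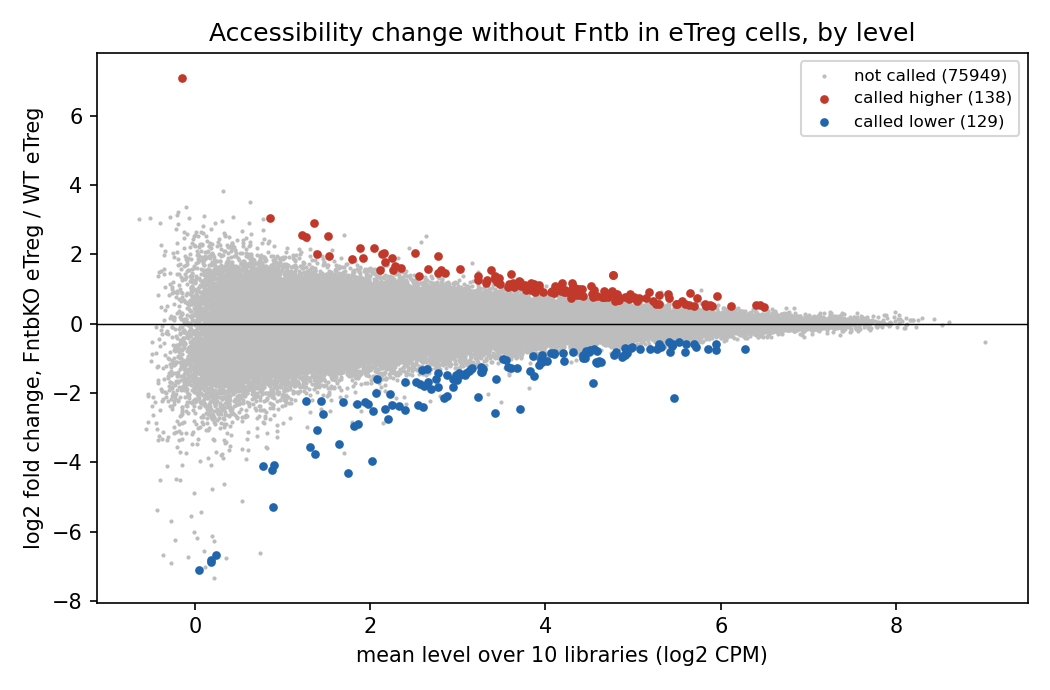
Each point is 1 of 76216 tested regions, with its mean level over the 10 libraries in log2 CPM on the x axis and its log2 fold change of FntbKO over WT eTreg cells on the y axis. The 138 regions called higher lie mainly at high levels, while the 129 called lower spread over the whole range. In 1 of the rises and 8 of the falls, the most extreme points in both directions among them, 1 group had at most 3 counts.

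The number of called regions depended on single libraries. Of the 267 regions, 70, 161 and 39 kept the call without WT eTreg 1, 2 and 3, and 31 and 8 without FntbKO eTreg 1 and 2. Without WT cTreg 3, which enters only through the shared spread, 150 kept it. Without WT cTreg 2 the count of called regions was 507, and leaving out WT eTreg 3 gave 39. A fit that drops both WT cTreg 2 and FntbKO cTreg 1, chosen after seeing the data, called 698, and with the 5 eTreg libraries alone it was 802. Only 3 regions kept the call whichever of the 10 libraries was left out, namely the Fntb start region, a region near Slc39a11 and a region of Trim12a.

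The 10 largest falls among well-covered regions, 1 per gene, were led by regions of Trim12a and Trim5, which belong to the TRIM family of antiviral restriction factors. They were followed by Ptprm, a receptor-type tyrosine phosphatase, Slc39a11, a zinc transporter, and Slco3a1, an organic anion transporter. Klrg1, Churc1, Dnaaf5, Fntb and Lztfl1 completed the list. The Ptprm region (chromosome 17, 67193881 to 67194472, inside the gene) held 7.71, 5.48 and 8.82 CPM in WT and 1.0 and 1.57 CPM in FntbKO eTreg cells, a log2 fold change of -2.40 (SE 0.39, edgeR adjusted p = 0.0037). The Slco3a1 region (chromosome 7, 74351320 to 74351802, inside the gene) held 11.1, 11.3 and 13.4 CPM in WT and 1.60 and 3.35 CPM in FntbKO cells, a log2 fold change of -2.15 (SE 0.37, edgeR adjusted p = 0.00747). In both, each FntbKO library held less than every WT library, which the rule that chose them required. The Dnaaf5 region, inside a gene for assembly of the motors of cilia, varied more within WT, at 6.02, 15.0 and 8.65 CPM, against 3.21 and 2.56 in FntbKO (log2 fold change -1.82, SE 0.39, edgeR adjusted p = 0.0368). The Lztfl1 region held 6.39, 9.16 and 8.48 CPM against 2.81 and 2.26 (log2 fold change -1.69, SE 0.38, edgeR adjusted p = 0.0433).

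The 10 largest rises lay at Mnd1, a meiotic recombination gene, Zfr, which encodes an RNA-binding zinc finger protein, Anln, the actin-binding protein anillin, Tmem131l, Gm11213, Xpo4, a nuclear transport receptor, Tfrc, the transferrin receptor, Fryl, Fggy, a carbohydrate kinase, and Ly75, the endocytic receptor DEC-205. The Ly75 region (chromosome 2, 60370092 to 60370702, inside the gene) held 17.6, 18.8 and 11.7 CPM in WT and 36.5 and 48.2 CPM in FntbKO eTreg cells, a log2 fold change of 1.39 (SE 0.18, edgeR adjusted p = 0.000755). The Fggy region (chromosome 4, 95481918 to 95482681, outside the gene) held 13.3, 18.8 and 10.9 CPM in WT and 38.5 and 39.4 CPM in FntbKO cells (log2 fold change 1.42, SE 0.19, edgeR adjusted p = 0.00191). These were the deepest covered of the 10. In each of them the lower FntbKO library was above the highest WT library, which the rule that chose them required. Mnd1 had the largest value, with 2.17, 2.59 and 2.04 CPM in WT and 9.42 and 9.45 CPM in FntbKO cells (log2 fold change 2.04, SE 0.35, edgeR adjusted p = 0.00603). Its FntbKO libraries were nearly equal, yet the region rests on 56 counts in all WT libraries together. All 20 ranked regions kept their direction when any 1 eTreg library was left out, while 12, 15 and 7 of them kept the call without WT eTreg 1, 2 and 3 and 4 each without FntbKO eTreg 1 or 2.

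**Figure D2:**
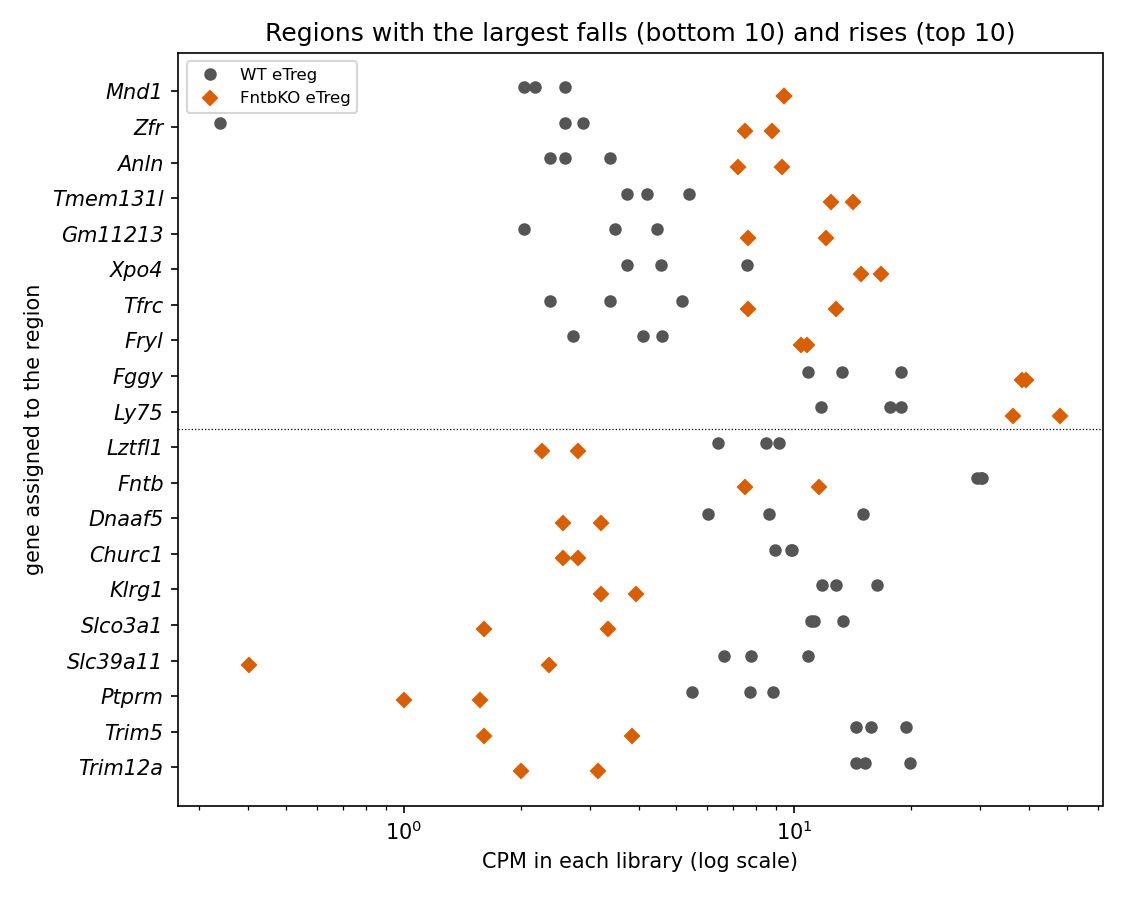
CPM of each eTreg library on a log axis for the 10 largest falls (bottom) and the 10 largest rises (top), with circles for the 3 WT and diamonds for the 2 FntbKO libraries of each region. The groups do not overlap in any of the 20 regions, as the rule that chose them required, and the Ly75 and Fggy regions lie at the highest levels among the rises.

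Neighbouring called regions formed 4 runs of 3 or more with the same direction and gaps of at most 100 kb. The longest in calls lay at 113153341 to 113268225 on chromosome 11 (114.9 kb), where 10 of 21 tested regions were called, all lower, and all 21 had a log2 fold change below 0. The called values ran from -2.49 to -0.81. In 9 of the 10 regions the nearest gene was Slc39a11 beyond its end, and 1 region lay inside the gene. The most accessible of them (113173931 to 113174741) held 51.9, 58.5 and 58.4 CPM in WT and 10.4 and 14.4 CPM in FntbKO eTreg cells (log2 fold change -2.14, SE 0.19, edgeR adjusted p = 1.36e-05). The region inside the gene (113267532 to 113268225) held 20.5, 21.1 and 19.0 CPM in WT and 7.21 and 6.99 in FntbKO cells (log2 fold change -1.51, SE 0.23, edgeR adjusted p = 0.00235). In both regions the WT libraries were close to each other and the FntbKO libraries clearly below them.

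Beside the interval, of the 7 tested regions within 100 kb on either side, edgeR, DESeq2 and limma-voom called 0, but all lay below 0, with a median of -1.0 and 6 lower at an unadjusted p under 0.05. The uninterrupted stretch of tested regions below 0 around the interval held 30 regions between 111818058 and 113383420, with a median log2 fold change of -1.05, and the same 30 regions were all below 0 in cTreg cells, with a median of -1.42. This stretch was drawn after its values were seen. In cTreg cells 9 of the 10 regions of the run were also called lower.

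**Figure D3:**
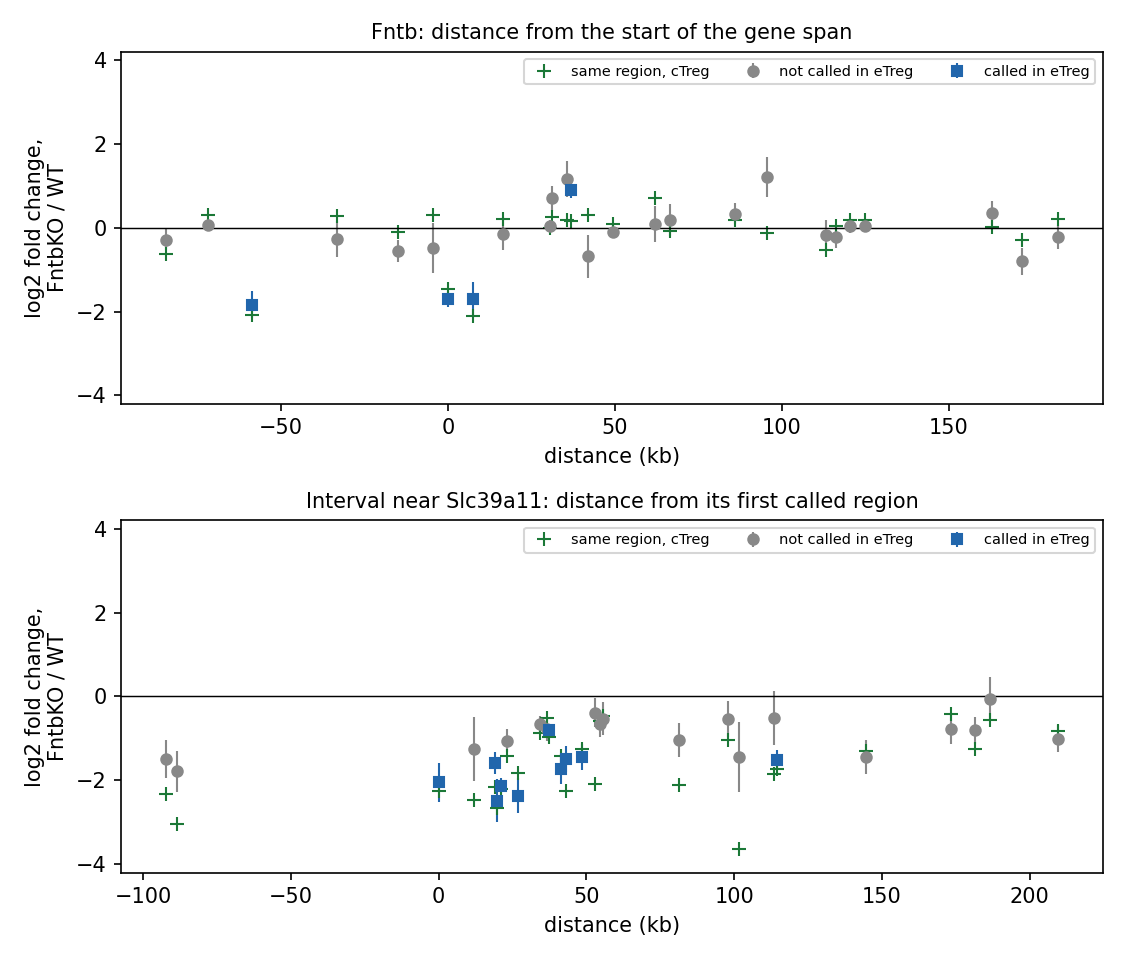
Log2 fold change of FntbKO over WT (points with SE bars for eTreg, crosses for cTreg) for tested regions by distance in kb, from the start of the Fntb span (top) and from the first called region near Slc39a11 (bottom). At Fntb regions lie on both sides of 0, with called regions in both directions, whereas near Slc39a11 all 21 regions of the interval lie below 0 in eTreg cells.

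A second run covered Churc1, a zinc finger gene, and the start of Fntb (chromosome 12, 76778486 to 76845058), with 3 of 6 tested regions lower. Its Churc1 region (76778486 to 76779123, inside the gene) held 9.88, 8.97 and 9.84 CPM in WT and 2.81 and 2.56 CPM in FntbKO eTreg cells (log2 fold change -1.84, SE 0.32, edgeR adjusted p = 0.00747), a call lost without either FntbKO library. Within 100 kb of the Fntb span 4 of 26 tested regions were called (15.4%), within 1 Mb 4 of 119 (3.36%), and within 10 Mb 6 of 937 (0.64%). Of the 6 regions called within 10 Mb, 4 thus lay within 100 kb.

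Another run lay at the antiviral TRIM genes Trim5 and Trim12a (chromosome 7, 104290615 to 104315361, 24.7 kb), with 4 of 6 tested regions lower and all 6 below 0. The Trim12a region at 104314661 held 15.2, 14.4 and 19.9 CPM in WT and 2.00 and 3.15 CPM in FntbKO eTreg cells (log2 fold change -2.59, SE 0.31, edgeR adjusted p = 8.49e-05). The Trim5 region at 104291329 held 14.5, 15.7 and 19.3 CPM against 1.60 and 3.84 (log2 fold change -2.46, SE 0.35, edgeR adjusted p = 0.00267). The Trim12a region at 104299986 had 65 counts over the WT and 2 over the FntbKO eTreg libraries, too few for a fold. Within 100 kb on either side 10 regions were tested, of which edgeR, DESeq2 and limma-voom called 0 (1 higher at an unadjusted p under 0.05), with a median of -0.02. Trim5, Trim12a and Trim30d lie beside other genes of the TRIM family, so reads may have been placed on the wrong gene. The placement of reads was not tested, and these values are uncertain.

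The fourth run was the only one that rose. It began inside Tnfsf8, which encodes CD30 ligand, and ended short of Tnc, which encodes the matrix protein tenascin-C (chromosome 4, 63842172 to 63939976), with 3 of 19 tested regions called and 18 of 19 above 0. The Tnfsf8 region at 63842172 held 14.3, 13.4 and 12.6 CPM in WT and 27.6 and 33.1 CPM in FntbKO eTreg cells (log2 fold change 1.18, SE 0.18, edgeR adjusted p = 0.00206). The 2 regions assigned to Tnc lay outside the gene, at log2 fold changes of 0.99 and 0.74. The median over all 19 tested regions was 0.76. A maximum gap of 50 kb gave 2 runs in place of 4.

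Regions over promoter windows changed in 1 direction. Of 9084 such regions 0 rose and 19 fell (0.209% called), whereas among the 67132 other regions 138 rose and 110 fell (0.369%). At an unadjusted p under 0.05, 283 promoter-window regions were higher (3.12%) and 643 lower (7.08%), against 6.43% and 5.82% of all regions. DESeq2 called 0 higher and 28 lower and limma-voom 0 and 16, while other alternatives called up to 11 promoter-window regions higher. Promoter-window regions were well covered, with a median of 4.89 log2 CPM. Within the quartile of regions with the highest level, 0 promoter-window regions rose and 13 fell of 6732, against 89 and 44 of 12322 others. The median log2 fold change over all promoter-window regions was nevertheless small, at -0.03. Regions inside genes had 89 higher and 48 lower of 38934 (0.352% called, as over all regions), with a median of 0.03 and 52.5% above 0. Leaving out FntbKO eTreg 1 or 2 gave 2 promoter-window regions called lower, and leaving out WT eTreg 1 or 3 gave 4.

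After Fntb, the promoter-window regions with the smallest p lay at Serp2, Trim30d and Zfp33b. The Serp2 region (chromosome 14, 76556292 to 76557131) held 34.5, 30.6 and 38.7 CPM in WT and 17.2 and 15.1 CPM in FntbKO eTreg cells (log2 fold change -1.11, SE 0.18, edgeR adjusted p = 0.0037). The Trim30d region (chromosome 7, 104507678 to 104508118) held 9.16, 6.77 and 8.14 CPM against 0.80 and 1.97 (log2 fold change -2.39, SE 0.41, edgeR adjusted p = 0.00717). The region of Zfp33b, a zinc finger gene (chromosome 5, 104571377 to 104571936), held 31.6, 33.1 and 32.6 CPM against 16.0 and 18.1 (log2 fold change -0.91, SE 0.16, edgeR adjusted p = 0.00842). In all of them both FntbKO libraries were below every WT library, but the groups did not overlap in any called region. Their upstream windows are printed because these were the promoter-window calls with the smallest p after Fntb. They are taken from RefSeq on GRCm38.p6 and 5′ to 3′ on the strand of the gene, for Serp2 at chr14:76556688-76556937 (minus strand), Trim30d at chr7:104507850-104508099 (minus strand) and Zfp33b at chr5:104571422-104571671 (plus strand). Capitals mark matches to the CCAAT box (CCAAT) or to the ETS core (CCGGAAG) on either strand.

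Serp2: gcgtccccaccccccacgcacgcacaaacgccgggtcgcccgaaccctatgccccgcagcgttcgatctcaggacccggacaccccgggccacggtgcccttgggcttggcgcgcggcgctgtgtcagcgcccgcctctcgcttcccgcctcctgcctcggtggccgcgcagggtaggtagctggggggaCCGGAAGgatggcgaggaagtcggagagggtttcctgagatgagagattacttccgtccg

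Trim30d: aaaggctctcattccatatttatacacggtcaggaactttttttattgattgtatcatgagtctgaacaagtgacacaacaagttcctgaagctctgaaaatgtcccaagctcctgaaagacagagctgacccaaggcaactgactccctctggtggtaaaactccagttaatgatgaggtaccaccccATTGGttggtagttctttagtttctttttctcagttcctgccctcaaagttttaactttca

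Zfp33b: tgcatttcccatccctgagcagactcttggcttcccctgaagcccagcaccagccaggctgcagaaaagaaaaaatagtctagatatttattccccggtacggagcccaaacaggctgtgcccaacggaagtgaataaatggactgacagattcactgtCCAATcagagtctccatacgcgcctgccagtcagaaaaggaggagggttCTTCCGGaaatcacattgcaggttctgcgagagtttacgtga

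RefSeq gives a second start for Serp2, whose window (76556917 to 76557166, 59.2% GC) holds a CCAAT box and no CCGGAAG. The printed windows have a GC content of 70.0% at Serp2, 41.2% at Trim30d and 50.4% at Zfp33b, against 49.6% at Fntb. The 19 called regions overlap the promoter windows of 21 RefSeq starts, at Nmi only in the 50 bases after the start. Of the 250 bases before these 21 starts, 10 held the GC box core GGGCGG, 9 CCAAT, 2 CCGGAAG, 1 the E box CACGTG and 0 the AP-1 core TGANTCA. Among all 21262 windows of the same length 42.6%, 35.4%, 9.0%, 6.6% and 6.1% held these motifs. Both strands were searched and no motif contains another. The other promoter-window regions among the 10 with the smallest p were at Nmi, an interactor of MYC and STAT proteins, Sec24d, a coat protein of secretory vesicles, Tanc2, Ptpn13, Zfp994 and Cd55. Their log2 fold changes ran from -1.28 at Tanc2 to -0.58 at Cd55.

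Regions of genes that mark central Treg cells lay mostly above 0 in FntbKO eTreg cells, though few passed the test. Of 469 regions at 18 genes, 2 rose and 1 fell (0.64% called, against 0.35% of all regions). The median log2 fold change was 0.23, against -0.0009 for all regions, and 68.4% lay above 0, against 49.9%. The FntbKO libraries were above all WT eTreg libraries in 33.0% of these regions and below all in 8.1%, against 16.0% and 15.0% of all regions. At an unadjusted p under 0.05 there were 93 higher (19.8%) and 14 lower (2.99%), against 6.43% and 5.82% of all regions. Summed over the list, the WT eTreg libraries held 5068, 5302 and 4839 CPM and the FntbKO eTreg libraries 5715 and 5625 CPM, while WT cTreg libraries held 5649.6 to 6101 CPM. The FntbKO eTreg sums thus lay above all WT eTreg sums, and 1 of them lay within the WT cTreg range. The list median stayed between 0.16 and 0.29 under 22 alternatives. In the same comparison of cTreg cells it was 0.13, with 65.2% above 0.

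The called rises of this list were both at Ccr7, the receptor that brings T cells into lymph nodes. The region 15.6 kb outside the gene (chromosome 11, 99170670 to 99171340) held 24.1, 25.7 and 17.8 CPM in WT and 40.7 and 45.6 CPM in FntbKO eTreg cells (log2 fold change 0.93, SE 0.15, edgeR adjusted p = 0.00495). In WT cTreg cells it held 40.0 ± 6.86 CPM (SD, n = 3), beside 43.1 ± 3.46 (n = 2) in FntbKO eTreg cells. The region inside the gene (99154895 to 99155501) held 34.6, 33.5 and 28.2 CPM in WT and 49.1 and 52.5 CPM in FntbKO eTreg cells (log2 fold change 0.66, SE 0.12, edgeR adjusted p = 0.0112). It held 52.1 ± 3.57 CPM (n = 3) in WT cTreg cells. Over all 18 Ccr7 regions 15 lay above 0, with a median of 0.51. Both calls were lost without FntbKO eTreg 2 or WT eTreg 3, and the one inside the gene also without FntbKO eTreg 1.

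Other central genes had many regions above 0 with no call. Those given here were not chosen by the naming rule given below. All 30 regions of Satb1, a chromatin organiser of T cells, lay above 0 with a median of 0.39. EdgeR called 0 Satb1 regions, and 4 (13.3%) were higher at an unadjusted p under 0.05, against 6.43% of all regions. Their sum was 253.9, 269 and 205.5 CPM in WT and 326 and 286.5 CPM in FntbKO eTreg cells. Of 85 regions of Bach2, a repressor that restrains effector differentiation, 67 lay above 0 with a median of 0.40, and the sum was 917, 909 and 859.7 CPM in WT and 1069 and 1074 CPM in FntbKO eTreg cells. The sums in FntbKO did not overlap those in WT for either gene. EdgeR called 0 Bach2 regions (25 higher, 29.4%, and 2 lower, 2.35%, at an unadjusted p under 0.05), whereas DESeq2 called 1 higher and 1 lower. S1pr1, which guides T cells out of lymph nodes, went against the list, with 29 of 41 regions below 0 and a median of -0.14. The fall among the list's calls was the promoter-window region of Cd55, a complement regulator, with 54.7, 51.1 and 59.0 CPM in WT and 41.7 and 32.5 in FntbKO eTreg cells (edgeR adjusted p = 0.0371).

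Regions of effector Treg genes lay slightly more often below 0 than above. Of 379 regions at 32 genes, 0 rose and 1 fell (0.264% called), with a median of -0.04 and 44.6% above 0. At an unadjusted p under 0.05, 23 were higher (6.07%) and 33 lower (8.71%), against 6.43% and 5.82% of all regions. The list summed to 4998.5, 5145.5 and 5281.6 CPM in WT and 4903.5 and 5099.8 CPM in FntbKO eTreg cells, so these sums overlapped. In the same comparison of cTreg cells the list had a median of -0.11 and 37.7% above 0. The region that fell lies 7.45 kb outside Klrg1, an inhibitory receptor of terminally differentiated lymphocytes (chromosome 6, 122262538 to 122263143). It held 11.8, 12.9 and 16.3 CPM in WT and 3.21 and 3.94 CPM in FntbKO eTreg cells (log2 fold change -1.90, SE 0.39, edgeR adjusted p = 0.0275). The level in FntbKO eTreg cells, 3.57 ± 0.517 CPM (SD, n = 2), stood beside that of WT cTreg cells, 3.46 ± 1.43 (n = 3). This call was lost without any 1 of the 5 eTreg libraries. In all, 10 of 11 Klrg1 regions lay below 0.

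At Maf, a transcription factor of IL-10-producing Treg cells, 10 of 11 regions lay below 0 with a median of -0.40, and edgeR called 0 (3 lower at an unadjusted p under 0.05). At Il10 itself 9 of 12 did, with a median of -0.61 and 0 called (5 lower unadjusted), and the sum was 243.7, 230.4 and 312 CPM in WT and 179.9 and 207 CPM in FntbKO eTreg cells. At Tigit, another inhibitory receptor, 14 of 17 did, with a median of -0.34 and 0 called (2 lower unadjusted). DESeq2 and limma-voom also called 0 at these genes. The unadjusted falls were 27.3% of regions at Maf, 41.7% at Il10 and 11.8% at Tigit, against 5.82% of all regions. Maf, Il10 and Tigit were not chosen by the naming rule given below and do not stand for the whole list. Other genes of the list went the other way. At Il1r2 and Icos more regions lay above 0 than below. Treg identity genes, which include Foxp3, Il2ra and Ikzf2, had 0 of 255 regions called by edgeR and a median of -0.03. Unadjusted, 19 were higher (7.45%) and 22 lower (8.63%). A region at Ikzf2, which encodes Helios, came closest, with 9.13 ± 1.34 CPM (n = 3) in WT and 3.18 ± 0.602 (n = 2) in FntbKO eTreg cells (log2 fold change -1.55, SE 0.36, edgeR adjusted p = 0.0509). DESeq2 and limma-voom each called 1 region of this list lower.

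**Figure D4:**
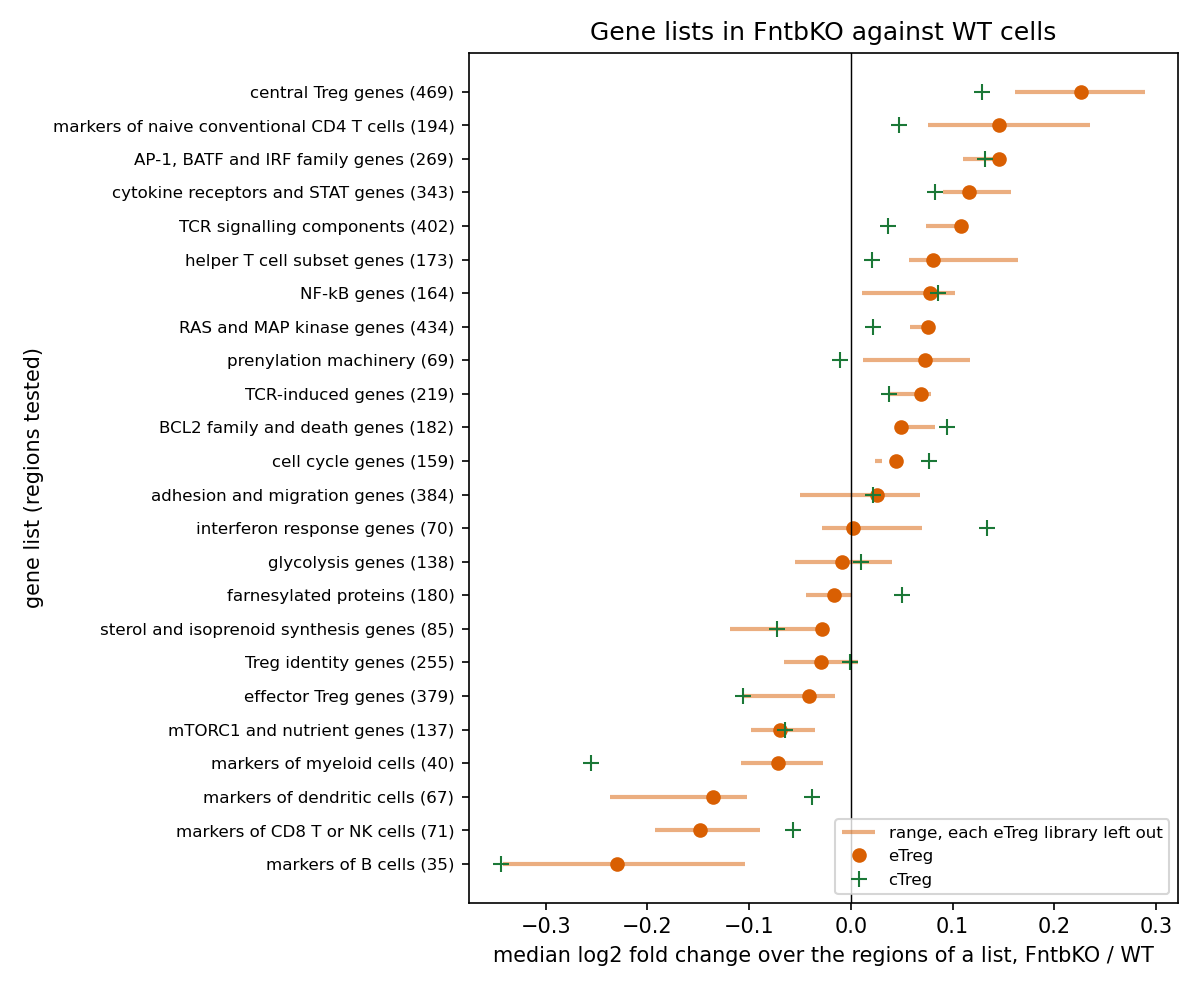
Median log2 fold change over the tested regions of each gene list with 20 or more regions (which leaves out the 9 regions of erythroid markers, median 0.46) in FntbKO over WT eTreg cells (circles), its range when each eTreg library is left out (bars) and the same median in cTreg cells (crosses), with the number of regions beside each name. Among the lists drawn, central Treg genes stand highest at 0.23 in eTreg cells and markers of B cells lowest at -0.23, and the other lists drawn lie within 0.15 of 0.

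Genes of the signals that farnesylation serves had 0 to 3 called regions a list, and at the 0.35% called over all regions such small lists would hold few. The prenylation list had 1 higher and 2 lower of 69 regions (4.35%), all at Fntb. The substrates of the enzyme, 30 genes of farnesylated proteins, had 0 of 180 regions called by edgeR (9 higher and 9 lower at an unadjusted p under 0.05) and a median of -0.02. The RAS and MAP kinase genes had 0 of 434 (34 higher and 18 lower unadjusted) and a median of 0.08. DESeq2 and limma-voom also called 0 in both of these lists. The components of T cell receptor signalling had 0 of 402 (38 higher and 15 lower unadjusted) and a median of 0.11, while DESeq2 called 2 and limma-voom 1 higher. The family of AP-1, BATF and IRF factors, which bind together at activation-induced sites, had 0 of 269 (44 higher and 18 lower unadjusted) with a median of 0.15. DESeq2 called 1 of its regions in each direction and limma-voom 0. The unadjusted shares were 5.0% higher and 5.0% lower for farnesylated proteins, and 7.83% and 4.15% for RAS and MAP kinase genes. They were 9.45% and 3.73% for T cell receptor signalling and 16.4% and 6.69% for AP-1, BATF and IRF factors. Over all regions they were 6.43% and 5.82%.

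In the mTORC1 and nutrient list 1 of 137 regions rose (0.73% called, against 0.35% of all regions), 35.9 kb outside Tfrc, the receptor for iron uptake (chromosome 16, 32572528 to 32573036). It held 3.37, 5.18 and 2.38 CPM in WT and 7.61 and 12.8 CPM in FntbKO eTreg cells (log2 fold change 1.47, SE 0.32, edgeR adjusted p = 0.0387). Among NF-kB genes 1 of 164 rose (0.61% called), 5.76 kb outside Ikbkb, the kinase that releases NF-kB (chromosome 8, 22712353 to 22712848), with 16.6, 21.3 and 13.9 CPM in WT and 29.3 and 33.7 CPM in FntbKO (log2 fold change 0.85, SE 0.16, edgeR adjusted p = 0.0143). The Ikbkb region rose in cTreg cells too (log2 fold change 0.81, edgeR adjusted p = 0.00792). A single region in lists of this size is near the share over all regions. Both eTreg calls were lost without either FntbKO library, WT eTreg 1 or WT eTreg 3.

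Cytokine receptor and STAT genes had 0 higher and 2 lower of 343 regions (0.583% called, against 0.35% of all regions). Both lay more than 10 kb outside Tgfbr2, a receptor chain for TGF-β, which sustains Foxp3. The region at 116208241 on chromosome 9 held 14.8, 11.8 and 14.9 CPM in WT and 2.00 and 6.30 CPM in FntbKO eTreg cells (log2 fold change -1.61, SE 0.35, edgeR adjusted p = 0.0362). The one at 116212040 held 19.3, 24.5 and 24.1 CPM against 9.22 and 12.6 (log2 fold change -1.02, SE 0.22, edgeR adjusted p = 0.0364). The FntbKO libraries were below all WT libraries in both, but the groups did not overlap in any called region. The list as a whole had the opposite sign, with a median of 0.12 and 65.9% of regions above 0. Cell cycle genes had 1 lower of 159 (0.629% called), a region 19.2 kb outside Mki67, a marker of dividing cells, with 62.6, 59.4 and 82.6 CPM in WT and 47.1 and 36.0 CPM in FntbKO eTreg cells (log2 fold change -0.73, SE 0.14, edgeR adjusted p = 0.0203).

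The adhesion and migration list had 2 higher and 0 lower of 384 regions (0.521% called, near the 0.35% of all regions), both the Ccr7 regions. EdgeR called 0 regions in the lists of helper subset genes, TCR-induced genes, sterol and isoprenoid synthesis, glycolysis, BCL2 family and death genes, and interferon response genes. Their medians ran from -0.03 to 0.08. At an unadjusted p under 0.05 these lists had 22 and 6, 16 and 7, 5 and 7, 7 and 1, 17 and 6, and 6 and 1 regions higher and lower, in the order named. By list, 5.07% to 12.7% of regions were higher and 0.725% to 8.24% lower, against 6.43% and 5.82% of all regions. DESeq2 called 1 lower among helper subset genes and, as did limma-voom, 1 higher each among glycolysis and interferon genes.

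Lists of markers of other cells differed in part between the genotypes, with few or no called regions. The list of naive conventional CD4 T cell markers shares genes such as Ccr7, Lef1, Tcf7 and Il7r with the central Treg list. It had 2 higher of 194 regions (1.03% called, against 0.35% of all regions), both at Ccr7, and a median of 0.15. At an unadjusted p under 0.05, 34 were higher (17.5%) and 7 lower (3.61%), against 6.43% and 5.82% of all regions. DESeq2 and limma-voom each called 3 higher. The list summed to 1972, 2157 and 1917 CPM in WT and 2228 and 2175 CPM in FntbKO eTreg cells. Markers of CD8 T or NK cells summed to 599.5 to 649 CPM in WT and 574 and 586 in FntbKO, those of myeloid cells to 381 to 412 against 348 and 361, and those of dendritic cells to 558 to 625 against 534 and 524. In each of these the FntbKO sums were below all WT sums, an order that 15.0% of all tested regions also had. B cell markers overlapped, at 187 to 200.4 against 159.7 and 187.9. These 4 lists had 12, 9, 8 and 8 genes with tested regions, and Gzma, Lyz2, Csf1r, Ms4a1 and Cd79b were among those with none. In these lists and in the 9 regions of erythroid markers edgeR, DESeq2 and limma-voom called 0 regions (at an unadjusted p under 0.05, 3 higher and 6 lower for CD8 T or NK cells, 1 and 3 for B, 2 and 6 for myeloid, 4 and 8 for dendritic and 2 and 1 for erythroid cells). By list, 8.45% to 15.0% of these regions were lower at that p, against 5.82% of all regions, and 2.86% to 22.2% higher, against 6.43%. The part of other cells, or of cTreg cells within the eTreg sort, in the values above was not tested.

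The same genotype comparison in cTreg cells shares no library with that in eTreg cells. Both comparisons use the same estimate of the spread. The labels do not say whether same-numbered eTreg and cTreg libraries came from the same animals, so the comparisons may not be independent. There 145 regions rose (0.19%) and 288 fell (0.378%), 433 in all (0.568%). Of the 138 regions that rose in eTreg cells, 135 were above 0 in cTreg cells, with medians of 0.98 in eTreg and 0.51 in cTreg. All 129 regions that fell were below 0 in cTreg cells, with medians of -1.36 and -1.02. Over all tested regions 64.7% had the same sign. The 96 regions called in both, 27 higher and 69 lower, were 36.0% of the eTreg and 22.2% of the cTreg calls. Across regions, which are not independent replicates, the log2 fold changes of the 2 comparisons had a Pearson correlation of 0.376. Regions chosen for their size in 1 comparison are smaller in the other, and the regions called in cTreg cells had medians of 1.18 and -1.30 there against 0.74 and -0.78 in eTreg cells.

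**Figure D5:**
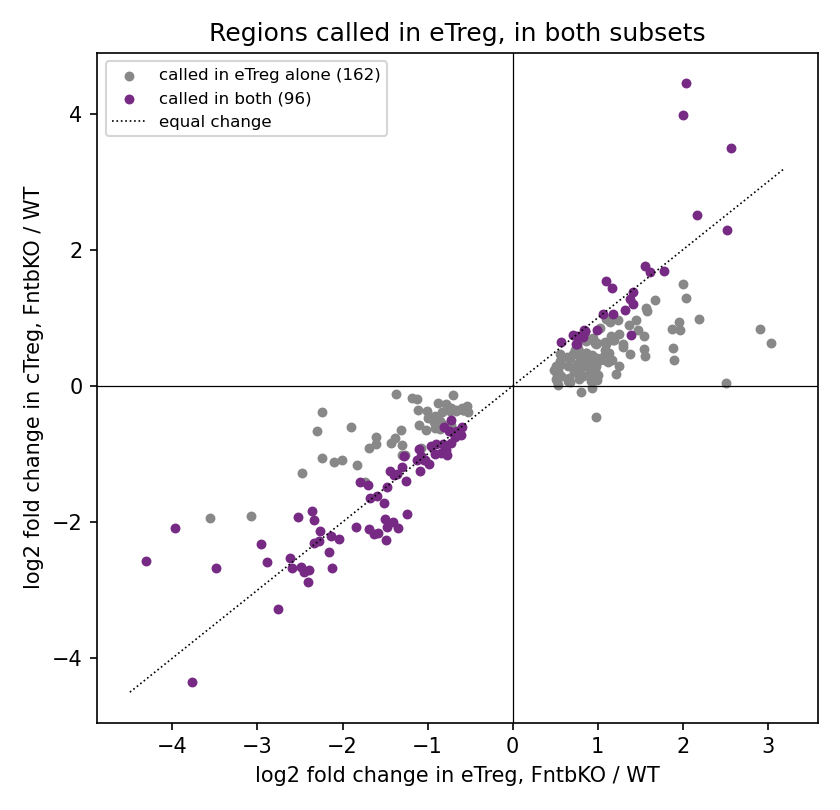
Log2 fold change of FntbKO over WT in eTreg (x axis) and cTreg cells (y axis) for regions called in eTreg cells, without the 9 that had at most 3 counts in a group, with regions called in both marked and a dotted line for equal change. All regions that fell in eTreg cells are below 0 on the y axis, and 3 that rose are below 0 there.

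No region was called for a difference between the genotype effects of the subsets. EdgeR's interaction test called 0 of 76216 regions (0.0%), with 3099 (4.07%) at an unadjusted p under 0.05, and DESeq2 and limma-voom called 0 as well. The 3 regions that rose in eTreg cells and were below 0 in cTreg cells lay near Btg1, an antiproliferative gene, and inside Myo10 and Frmd5, and were singled out after their values were seen. The Btg1 region (chromosome 10, 96535394 to 96535851) held 17.2 ± 1.95 CPM in WT and 30.1 ± 1.17 CPM in FntbKO eTreg cells, against 30.1 ± 3.80 and 28.3 ± 0.219 CPM in WT and FntbKO cTreg cells (SD over 3 WT or 2 FntbKO libraries). The Myo10 region held 18.4 ± 0.568 and 35.4 ± 5.50 CPM in WT and FntbKO eTreg cells and 28.9 ± 1.81 and 28.4 ± 0.601 CPM in WT and FntbKO cTreg cells. The Frmd5 region held 14.3 and 28.2 CPM in WT and FntbKO eTreg cells and 19.4 ± 3.73 and 13.9 ± 3.43 CPM in WT and FntbKO cTreg cells. The mean in WT eTreg cells was below those of the other 3 groups at Btg1, Myo10 and the outer Ccr7 region, but not at Frmd5. The interaction had an edgeR adjusted p = 1.0 at all 3 of these regions and at Ccr7 and Klrg1. The changes at Ccr7 in cTreg cells were 0.08 for the outer and 0.12 for the inner region, and neither was called.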

How the data were processed

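ATAC-seq counts of 10 libraries of Treg cells were used. The authors deposited raw read counts, without normalization, for 77076 regions. Per the submitters' processing notes, the tools were MACS2 2.1.1, bedtools, Picard 2.9.4, Trimmomatic 0.36 and SAMtools, and the build was GRCm38 (mm10). The aligner, the merging of regions, any shift of cut sites and the counting are not given in the sources used here. Of the non-zero counts of an eTreg library 70.33% to 78.92% were even, as when both mates of a pair are counted, which makes such counts dependent, and a fit on halved counts was tried. Coordinates are as in the table, which does not say whether starts count from 0 or 1.

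Counts were filtered with filterByExpr on the 4 groups, scaled by TMM and fitted with edgeR 4.0.16 (R 4.3.3; glmQLFit, robust) with 1 mean per group over all 10 libraries, which leaves 6 residual degrees of freedom. Calls were made at an adjusted p under 0.05 (Benjamini-Hochberg, all tested regions). SEs were taken from the fold change and its F statistic, and CPM are TMM-scaled. Regions with at most 3 counts in a group get no fold. The script was tested on simulated data with known changes. Genes and promoter windows are from RefSeq (GRCm38.p6). A region received the overlapping protein-coding gene, or the nearest within 100 kb (94.3% of tested regions). Gene lists were described by counts and medians, without set tests, and library measures by two-sided exact permutation tests.

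Regions were named by rule. The rule took the 10 largest rises and falls, 1 per gene, among called regions at or above the median level whose groups do not overlap, all regions of Fntb and Foxp3, up to 4 called regions of each of 25 lists (where there were none, its 2 of smallest p), runs of 3 or more called regions, and the 10 promoter-window calls with the smallest p. The Btg1, Myo10 and Frmd5 regions and the stretch around the Slc39a11 interval lie outside the rule. So do the tallies over all regions of Satb1, Bach2, S1pr1, Maf, Il10, Tigit, Klrg1 and Ccr7. The comparison, the lists and the rule were chosen with earlier results of these data known. Alternatives were other scalings (DESeq2 1.42.0 size factors, total counts, cyclic loess), DESeq2's and limma-voom's tests (limma 3.58.1), other filters, halved counts, eTreg libraries alone, a replicate block, no robust dispersion, and each library left out. Sequences are those of RefSeq promoter windows, and no whole genome was used here. Some list genes are not reported here by name.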

Additional observations from a re-analysis of the deposited data

How the results depend on the processing

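Against 267 called regions in eTreg cells, DESeq2's Wald test called 407, the eTreg libraries alone 802, halved counts 450 and the fit without WT cTreg 2 and FntbKO cTreg 1, added after seeing the data, 698. Leaving out 1 library gave 9 to 507 calls, against 41 to 723 for the 433 called in FntbKO over WT cTreg cells, and the fewest in eTreg cells came without FntbKO eTreg 2. The replicate block, which takes the replicate number as a term, gave 655. Same-numbered WT and FntbKO eTreg libraries had deviation correlations of 0.08 and -0.01, so pairing was not shown by this check. The check is weak, since the deviations of 2 FntbKO libraries mirror each other. The most covered regions took 11.7% to 11.8% of counts in replicate 1 and 10.7% to 11.0% in replicate 2 of all 4 groups. Promoter windows took 36.9% to 38.0% against 35.9% to 36.3%, and the X chromosome 2.293% to 2.348% against 2.191% to 2.287%. The labels do not say what a replicate number stands for, and the main fit has no term for it. The limma-voom test called 166 regions higher and 89 lower, a split unlike the 138 and 129 of edgeR. For the 19 promoter-window regions called lower, cyclic loess gave 29, eTreg libraries alone 40, no robust dispersion 10, the replicate block 42, the fit without both cTreg libraries 38 and leaving out 1 library 2 to 27. For the 0 called higher these gave 7, 6, 0, 11, 4 and 0 to 3, halved counts gave 3 and total counts 1. A gap of 50 kb gave 2 runs in place of 4. The cause of these shifts was not tested. The called regions named in the text kept their direction under all 22 alternatives in which they were tested. The reversed values were all at uncalled Fntb regions. With the replicate block the log2 fold change was 0.02 at 76853685, -0.02 at 76867580 and -0.13 at 76899243. With 1 library left out it ran from -0.55 to 0.10 at 76853685, -0.06 to 0.12 at 76867580, -0.25 to 0.07 at 76886753, -0.17 to 0.36 at 76899243 and -0.06 to 0.44 at 76903814. There were 2 FntbKO eTreg libraries, 1 of them at 5058328 counts, and the median SE over tested regions was 0.35 (log2). Changes up to 2-fold at regions with that SE or more were thus mostly not detectable. A region near Slc39a11 (113176280 to 113176551) with a log2 fold change of -1.05 (SE 0.28) was not called (edgeR adjusted p = 0.0927). Counts of 0 called regions are to be read with this limit.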
